A study of Mus musculus with 6 samples.

Results

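Prostaglandin and leukotriene enzymes turn arachidonic acid, a fatty acid released from cell membranes, into short-range lipid signals. The 10 genes described here, of 54532 in the count table, were Ptgs1, Ptgs2, Ptges, Hpgds, Ptgds, Ptgis, Alox5, Alox5ap, Ltc4s and Lta4h. They were chosen by name, through the Ensembl identifiers that carry these symbols in the GENCODE M21 annotation of the mouse genome build GRCm38. Epididymal fat, the visceral depot beside the epididymis, was sequenced in 3 samples from mice on a normal diet (ND, 4.5% fat) and 3 from mice on a high-fat diet (HFD, D12492, 60% fat). All were male C57BL/6J mice with no drug treatment, and the diets ran for 16 weeks from 4 weeks of age to 20 weeks. The labels do not say whether a sample is 1 mouse or a pool. The tests below set the difference between diets against the spread of libraries within each diet, which may not be the spread between mice.

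The prostaglandin branch begins with the cyclooxygenases Ptgs1 and Ptgs2, which make the unstable intermediate prostaglandin H2. Separate enzymes then finish it. Ptges makes prostaglandin E2, which in fat is known to restrain lipolysis, Hpgds and Ptgds make prostaglandin D2, and Ptgis makes prostacyclin. The leukotriene branch begins with Alox5, which works with the membrane protein Alox5ap to make leukotriene A4. Lta4h then makes leukotriene B4, a neutrophil attractant, and Ltc4s makes leukotriene C4, the first of the cysteinyl leukotrienes. Whole fat holds adipocytes, macrophages, mast cells, vessels and other cells, several of which use these enzymes.

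The libraries held between 16996896 and 18859320 counts, and a count of 3, used as the floor, equals 0.150 to 0.181 CPM (counts scaled to library size). Values in CPM use the TMM factors and compare 1 gene between libraries, while values in FPKM are also per length and compare genes. Of 12 adipocyte markers all were tested, with summed levels of 35900 to 45940 CPM on ND and 14080 to 33050 CPM on HFD. In that list Lep was higher on HFD, 4 genes (Slc2a4, Adrb3, Retn and Cfd) were lower, and the median log2 fold change was -0.70. Of 15 macrophage markers 9 were higher on HFD and 0 lower, and their summed level was 2026 to 2123 CPM on ND against 4183 to 9009 CPM on HFD, highest in the third HFD library. Of 8 neutrophil markers 4 were tested, with S100a8 higher and Camp lower. Camp had 0, 2 and 0 counts on HFD, below the floor. None of the 8 progenitor, 8 endothelial and 8 mesothelial markers passed. The third ND library stood apart from the rest by epithelial genes, with 751 counts of Epcam where the other 5 libraries had 4 or fewer.

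At an adjusted p under 0.05 in edgeR's quasi-likelihood test, Hpgds and Alox5ap were higher on HFD and Ptges was lower. Hpgds was 15.1-fold higher, Alox5ap 3.43-fold higher and Ptges 3.69-fold lower, and the other 7 enzymes did not pass. Across the 15751 genes tested the same rule called 15.9%, with 9.85% higher and 6.04% lower, against 2 higher and 1 lower of the 10 enzymes. All 10 were tested, so none was lost to the filter on low counts. The values of the diets did not overlap for 7 of the 10, beside 40.9% of all genes tested, and 6 of the 10 had an unadjusted p under 0.05 in the same test, beside 34.0% of all genes. The median log2 fold change of the 10 was -0.30 with 4 values above 0 and 6 below, beside 0.01 for all genes tested. In whole tissue a change in the number of cells of a type and a change in RNA per cell cannot be told apart.

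**Figure D1:**
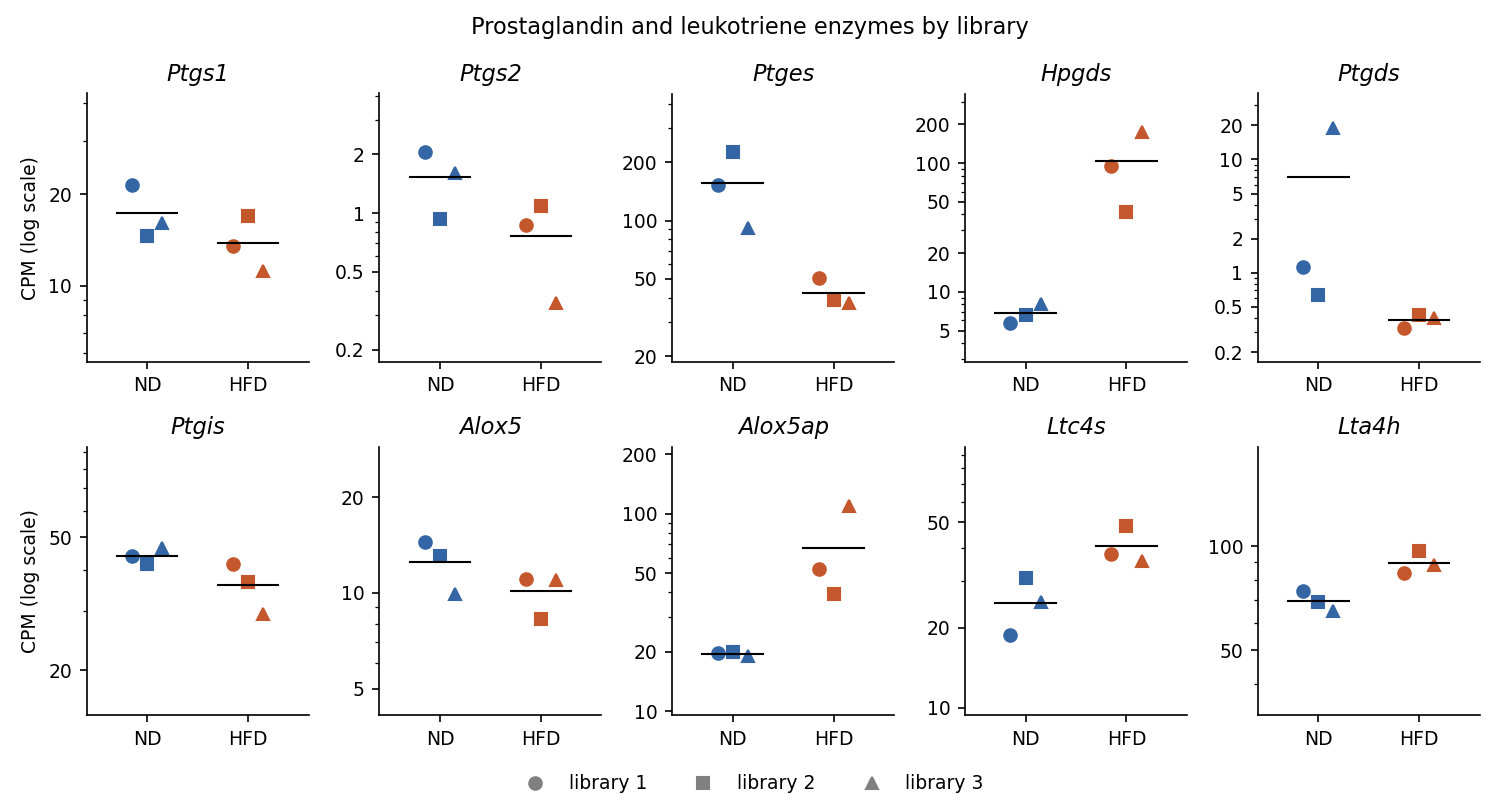
Level of each enzyme in CPM on a log axis, by diet (blue, ND; orange, HFD), with 1 point per library and a line at the mean of each diet. Hpgds, Alox5ap, Ltc4s and Lta4h sit higher on HFD with no overlap, Ptges, Ptgds and Ptgis sit lower with no overlap, and the mean of Ptgds on ND lies far above 2 of its 3 points.

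Per length, Ptges was the most abundant of the 10 on ND at 40.5 ± 17.6 FPKM (SD, n = 3), and it ranked 6th on HFD at 10.8 ± 1.89 FPKM. On ND it was followed by Ltc4s (24.9 ± 6.14 FPKM), Ptgis (17.4 ± 0.839), Alox5ap (14.0 ± 0.429) and Lta4h (11.5 ± 0.829). Below these came Ptgs1 (4.55 ± 0.956 FPKM), Ptgds (4.23 ± 6.38), Alox5 (3.09 ± 0.590), Hpgds (1.08 ± 0.176) and Ptgs2 (0.338 ± 0.125). The libraries of Ptges and Ltc4s overlapped, as did those of Ptgds with Lta4h, Ptgs1, Alox5, Hpgds and Ptgs2. Genes of such a pair did not differ beyond their spread. The third ND library, at 11.6 FPKM, raised the mean of Ptgds, and the place of Hpgds below Ptgds rests on it.

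On HFD the first places went to Alox5ap (47.4 ± 26.2 FPKM, SD, n = 3) and Ltc4s (40.4 ± 6.61), whose libraries overlapped. By mean, Hpgds moved from the 9th place to the 3rd, at 16.1 ± 10.3 FPKM, where it overlapped with Lta4h (14.7 ± 1.10), Ptgis and Ptges. Ptgis followed at 14.0 ± 2.41 FPKM and overlapped with Lta4h above it and Ptges below it. The last places were held by Ptgs1 (3.59 ± 0.747 FPKM), Alox5 (2.47 ± 0.392), Ptgds (0.234 ± 0.030) and Ptgs2 (0.169 ± 0.084), of which Ptgds and Ptgs2 overlapped. Alox5, which opens the leukotriene branch, ranked below Alox5ap, Ltc4s and Lta4h on either diet.

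The promoters of Hpgds, Ptges and Ptgds are shown because Hpgds and Ptges had the largest changes that passed the test, in opposite directions, and Ptgds makes the same product as Hpgds. Each runs from 250 bases before to 50 bases after the start of the gene in RefSeq on GRCm38.p6, read 5′ to 3′ on the strand of the gene. The Hpgds promoter lies at chr6:65144681-65144980 on the minus strand, that of Ptges at chr2:30903248-30903547 on the minus strand, and that of Ptgds at chr2:25469700-25469999 on the minus strand. Capitals mark matches to 6 short motifs searched on either strand.
Hpgds: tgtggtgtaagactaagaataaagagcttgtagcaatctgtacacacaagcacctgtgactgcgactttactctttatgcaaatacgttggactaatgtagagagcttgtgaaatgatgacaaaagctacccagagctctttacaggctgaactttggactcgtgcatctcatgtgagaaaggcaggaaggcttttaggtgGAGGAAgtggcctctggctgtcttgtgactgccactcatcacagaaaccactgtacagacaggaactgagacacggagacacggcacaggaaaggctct
Ptges: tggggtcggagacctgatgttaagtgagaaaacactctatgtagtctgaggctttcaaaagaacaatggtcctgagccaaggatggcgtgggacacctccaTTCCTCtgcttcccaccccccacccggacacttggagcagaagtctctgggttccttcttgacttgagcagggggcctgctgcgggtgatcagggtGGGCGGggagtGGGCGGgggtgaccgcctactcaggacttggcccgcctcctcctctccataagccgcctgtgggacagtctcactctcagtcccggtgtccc
Ptgds: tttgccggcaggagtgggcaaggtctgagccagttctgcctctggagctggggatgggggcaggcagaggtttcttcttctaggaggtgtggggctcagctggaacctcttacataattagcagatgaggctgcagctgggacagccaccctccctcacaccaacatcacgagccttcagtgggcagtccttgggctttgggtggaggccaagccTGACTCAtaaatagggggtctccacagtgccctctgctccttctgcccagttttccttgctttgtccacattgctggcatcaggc

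Promoters of 8 of the 10 enzymes were matched in the RefSeq table used, and those of Alox5ap and Ptgis were not analysed here. The GC content was 46.7% for Hpgds, 60% for Ptges and 57.7% for Ptgds, beside a median of 52.7% over 32851 promoters of the same length. The capitals in Hpgds are GAGGAA, the core bound by the myeloid factor PU.1, with its first base 49 bases before the start. Ptges holds GGGCGG, a GC box, at 53 and 42 bases before the start, and TTCCTC, the PU.1 core on the other strand, at 149 bases before it. Ptgds holds TGACTCA, a match to the AP-1 site TGANTCA, at 35 bases before the start. Of all promoters 28.3% hold the PU.1 core, 35.7% the GC box and 7.81% the AP-1 site. The PU.1 core was present in 7 of the 8 promoters, in all but that of Ptgds. The other motifs searched were TATAAA (13.6% of all promoters), CACGTG (7.15%) and the NF-kB site (1.63%), and none of these is in the 3 promoters shown. These are matches of letters and were not tested as sites.

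The cyclooxygenases did not pass the test. Ptgs1, the constitutive form (ENSMUSG00000047250, chr2:36230426-36252272), had 21.5, 14.6 and 16.1 CPM in the 3 ND libraries and 13.5, 16.9 and 11.2 CPM in the 3 HFD libraries. The diets overlapped, and the log2 fold change was -0.33 (SE 0.21, adjusted p = 0.322 by edgeR). Ptgs2, the inducible form (ENSMUSG00000032487, chr1:150100031-150108227), was the least abundant of the 10 by mean FPKM on either diet, with overlap with Ptgds. It had 38, 16 and 32 counts on ND against 16, 18 and 6 on HFD. Its log2 fold change was -0.99 (SE 0.51, adjusted p = 0.217), and the diets overlapped in CPM. Ptgs2 was 11.9 to 18.6 times lower than Ptgs1 per length on ND and 18.2 to 38.3 times lower on HFD.

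Ptges, the inducible prostaglandin E synthase (ENSMUSG00000050737, chr2:30889471-30929863), fell on HFD. It had 152.9, 225.7 and 91.7 CPM in the ND libraries and 50.9, 39.1 and 37.4 CPM in the HFD libraries, so the lowest ND library was above the highest HFD library. The log2 fold change was -1.88 (SE 0.32, adjusted p = 0.0132 by edgeR). The adjusted p rose to 0.0523 without the first ND library and to 0.0517 without the first HFD library, with log2 fold changes of -1.90 and -2.06. It passed in the other 4 fits that left out a library. Beside it, adipocyte markers were lower on HFD in sum. Ptges per 1000 CPM of adipocyte markers was 3.71, 4.91 and 2.56 on ND against 2.33, 1.18 and 2.66 on HFD, and the diets overlapped on that scale (log2 difference -0.89). Cfd, the largest of these markers on ND, fell more than the others, and without it the values were 5.51, 7.45 and 3.80 in the ND libraries against 2.46, 1.28 and 2.69 in the HFD libraries, with no overlap and a log2 difference of -1.40. These ratios were chosen after the values were seen, and the part of adipocyte markers in the result was not tested beyond them. The genes with the profile most like that of Ptges over the 6 libraries were Gpd2, Pdhb and Tlcd2, with root mean square differences in centred log2 CPM of 0.204, 0.261 and 0.271.

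The other prostaglandin E synthases had different values. Ptges2 fell on HFD, from 746, 932 and 782 counts on ND to 398, 430 and 451 (log2 fold change -0.86, adjusted p = 0.0169 by edgeR). Ptges3, which is also a chaperone partner, had a log2 fold change of 0.22 and did not pass.

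Hpgds, the glutathione-dependent prostaglandin D synthase known from macrophages, mast cells and other blood-borne cells (ENSMUSG00000029919, chr6:65117293-65144908), rose the most of the 10. It had 106, 115 and 161 counts on ND against 1734, 693 and 3009 on HFD, or 5.72, 6.67 and 8.05 CPM against 94.8, 41.7 and 173.3 CPM. The lowest HFD library was above the highest ND library, and the HFD libraries differed among themselves more than the ND libraries did, with 103.3 ± 66.2 CPM against 6.81 ± 1.17 CPM (SD, n = 3). The log2 fold change was 3.92 (SE 0.51, adjusted p = 0.00754 by edgeR). Hpgds passed in each of the 6 fits that left out a library, with log2 fold changes of 3.31 to 4.30, the lowest of them without the third HFD library.

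**Figure D2:**
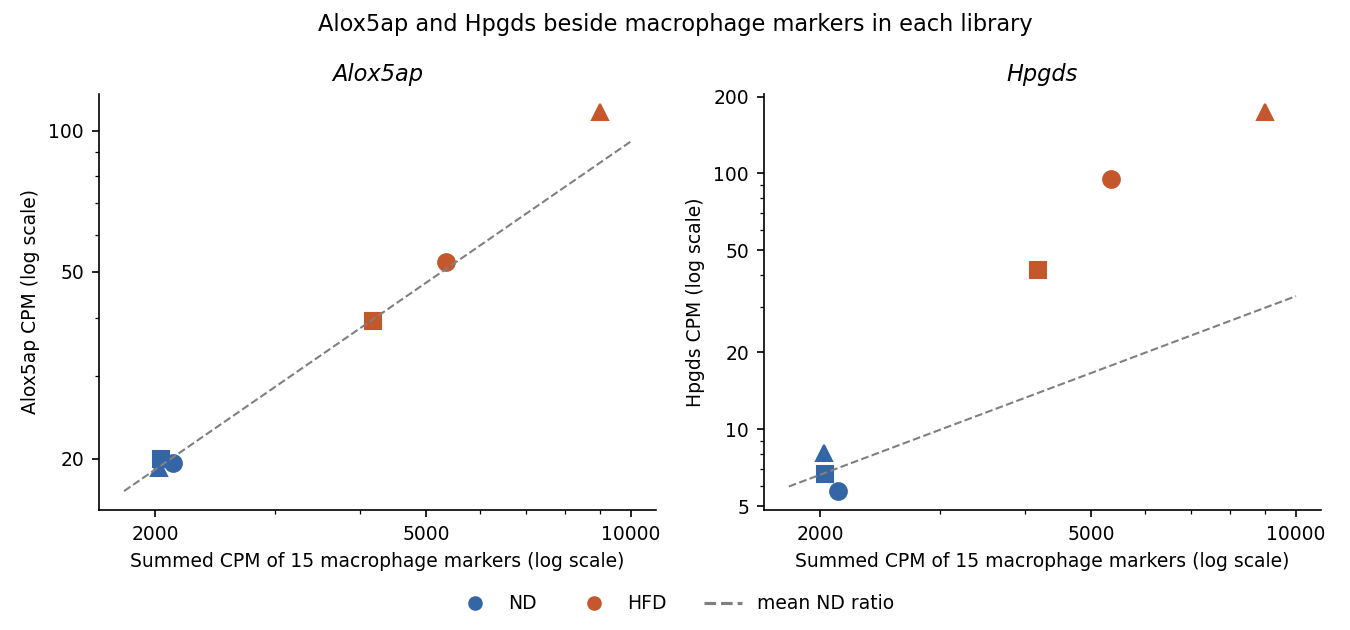
CPM of Alox5ap (left) and Hpgds (right) against the summed CPM of 15 macrophage markers, both on log axes, with 1 point per library (blue, ND; orange, HFD; circle, square and triangle for libraries 1, 2 and 3). The dashed line is the mean ratio of the ND libraries, and the HFD points of Alox5ap lie near it or, in library 3, above it, while all 3 HFD points of Hpgds lie far above it.

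The summed level of macrophage markers rose with Hpgds in the same libraries, but by less. Per 1000 CPM of the 15 macrophage markers, Hpgds was 2.70, 3.27 and 3.97 CPM on ND against 17.7, 9.98 and 19.2 CPM on HFD, with no overlap and a log2 difference of 2.20. Lyz2 is the largest of the markers, and without it the log2 difference was 2.35. This ratio was chosen after the values were seen. The macrophage list ranged from Cx3cr1, at a log2 fold change of -0.31, to Cd68 at 3.72, with a median of 1.26. Cd68 alone thus rose nearly as much as Hpgds (3.92), and the ratio depends on which markers are summed. None of the genes in the list was at 0. Of 10 mast cell markers 9 were tested and 0 passed, with a median log2 fold change of 1.61 and summed levels of 38.2 to 75.2 CPM on ND and 59.0 to 212.8 CPM on HFD. Hpgds per 1000 CPM of mast cell markers was 90.4, 174.7 and 107 CPM on ND against 1049, 707.2 and 814.4 CPM on HFD, again with no overlap. This ratio also depends on the markers summed. Hdc had 379 counts in the third ND library against 43 to 119 in the others, and Kit had a log2 fold change of -0.02. The other 7 markers tested had values above 0, up to 2.59 for Tpsab1. The genes with the profile most like that of Hpgds were Cd72, Hk3 and Cd300lb (root mean square differences of 0.203, 0.212 and 0.213 in log2 CPM), and these have log2 fold changes of 3.70, 3.89 and 3.93.

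Ptgds, the lipocalin-type prostaglandin D synthase (ENSMUSG00000015090, chr2:25466709-25470046), was low in 5 libraries and high in 1. It had 21, 11 and 381 counts on ND against 6, 7 and 7 on HFD, so the third ND library held most of its counts. The log2 fold change was -4.16 (SE 1.35, adjusted p = 0.0776 by edgeR), and without that library it was -1.23 (adjusted p = 0.156). Neither passed, and the diets did not overlap. The same library was high for epithelial genes. Epcam had 1, 2 and 751 counts on ND against 4, 0 and 0 on HFD. Cdh1 had 2, 0 and 309 counts on ND against 1, 1 and 6 on HFD. The keratin gene Krt8 was also highest there, at 1622 counts against 104 to 144 in the other libraries. Of 15 epididymis and epithelial markers 3 were tested and 0 passed. Their summed level was 20.4 to 183.0 CPM on ND and 16.01 to 24.2 CPM on HFD. The high sum was mainly Epcam, Cdh1, Krt8 and Krt18 (712 counts in the third ND library, 41 to 89 in the others). Krt7 had 227 counts there against 126 to 185, and Cldn4 had 4 or fewer in any library. The epididymis genes Lcn5, Lcn8, Lcn12, Crisp1, Adam7, Rnase9, Rnase10 and Cst8 had 14 counts or fewer in any library. Of these, Crisp1 had 0, 0 and 12 counts on ND against 0, 0 and 0 on HFD. Adam7 had 0, 1 and 14 counts on ND against 0, 2 and 0 on HFD, so both were highest in the third ND library. Lcn5 was highest in the second HFD library (14 counts) and Rnase10 in the second ND library (12 counts). Lcn9 was at 0 in all libraries. The part of these markers in the Ptgds values was not tested. The genes most like Ptgds in profile were Prom1, Lcn2 and Wnk2, with larger root mean square differences (0.314, 0.413 and 0.433) than those of the other 9 enzymes.

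**Figure D3:**
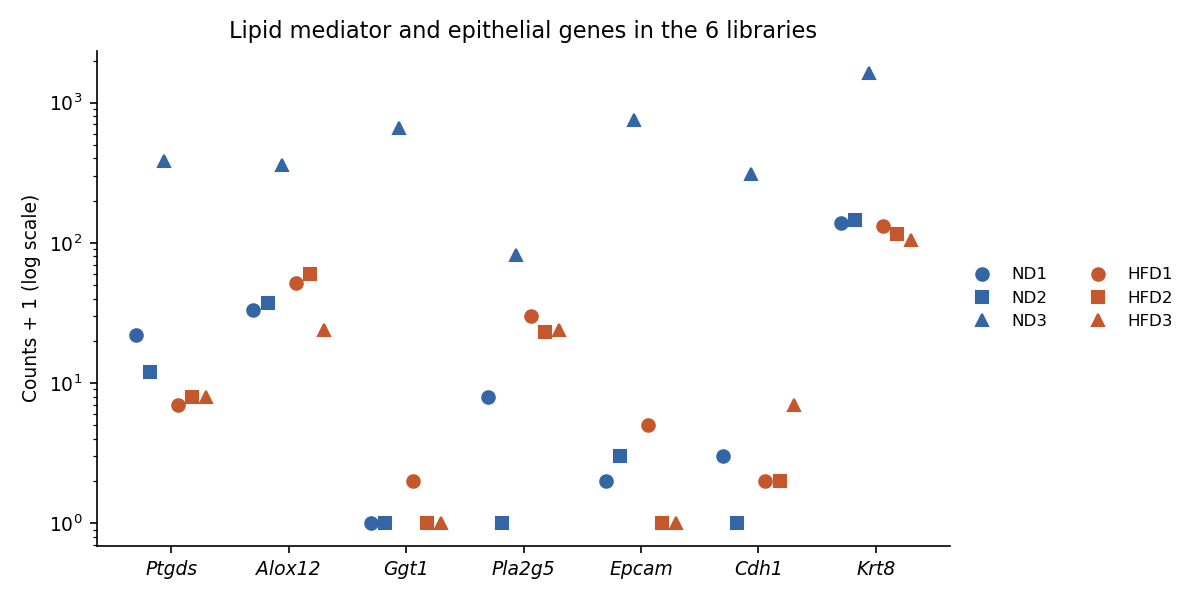
Counts plus 1 on a log axis for Ptgds, 3 other lipid mediator genes (Alox12, Ggt1 and Pla2g5) and 3 epithelial markers (Epcam, Cdh1 and Krt8), with 1 point per library. The third ND library (blue triangle) is the highest for all 7 genes, at 381 counts of Ptgds and 751 of Epcam.

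Ptgis, the prostacyclin synthase (ENSMUSG00000017969, chr2:167191805-167240604), had close values on the diets. It had 44.0, 41.6 and 46.5 CPM on ND against 41.5, 36.7 and 29.4 CPM on HFD, and the diets met almost without a gap. The log2 fold change was -0.30 (SE 0.15, adjusted p = 0.201 by edgeR). An antisense transcript, 1110018N20Rik, shares 156 bases with its exons (6.08%), and the library kit does not mark strand.

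Alox5ap, the membrane protein that presents arachidonic acid to Alox5 (ENSMUSG00000060063, chr5:149264767-149288153), rose on HFD. It had 19.7, 19.95 and 19.1 CPM on ND against 52.6, 39.3 and 109.3 CPM on HFD. The 3 ND libraries were close together, each HFD library was above them, and the third HFD library was the highest. The log2 fold change was 1.78 (SE 0.36, adjusted p = 0.0210 by edgeR). The result passed in 2 of the 6 fits that left out a library, without the second HFD library (log2 fold change 2.05, adjusted p = 0.00424) and without HFD library 3 (1.22, adjusted p = 0.00323). It did not pass when any of the ND libraries 1, 2 or 3 was left out (adjusted p = 0.0800, 0.0794 and 0.0687) or without the first HFD library (0.0590), with log2 fold changes of 1.72 to 1.89. The antisense transcript Gm19719 shares 189 bases with its exons (13.3%), with 9 counts or fewer in any library.

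Alox5ap stayed close to the summed level of the macrophage markers, of which Lyz2 is the largest. Single markers ranged from a log2 fold change of -0.31 to 3.72, and that of Lyz2 was 1.78. Per 1000 CPM of these markers it was 9.26, 9.79 and 9.42 CPM on ND against 9.83, 9.40 and 12.1 CPM on HFD, so the diets overlapped and the log2 difference was 0.13. Without Lyz2 in the sum the values were 16.7, 17.5 and 16.5 CPM on ND against 18.1, 18.2 and 26.3 CPM on HFD, which did not overlap, with a log2 difference of 0.28. Among its 3 genes of nearest profile, Shc2 (root mean square difference 0.0644), Lyz2 (0.0715) and Ccl6 (0.0746), Lyz2 is itself in the macrophage list. Its likeness is therefore not separate from the ratio to the full sum. The part of macrophage markers in the Alox5ap result was not tested beyond these ratios.

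Alox5, the 5-lipoxygenase (ENSMUSG00000025701, chr6:116410077-116461178), did not pass the test. It had 14.4, 13.1 and 9.95 CPM on ND against 11.1, 8.25 and 11.0 CPM on HFD, and the diets overlapped (log2 fold change -0.30, SE 0.21, adjusted p = 0.343 by edgeR). Per 1000 CPM of macrophage markers Alox5 was 4.91 to 6.79 CPM on ND and 1.22 to 2.07 CPM on HFD, with no overlap. The marker sum itself rose on HFD, so a gene that changed little has a lower ratio there. Ptgs1, Ptgs2, Ptgis and Lta4h also had lower ratios on HFD with no overlap, so this is not particular to Alox5.

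Ltc4s and Lta4h, which divide leukotriene A4 between them, had higher values in every HFD library than in any ND library, and neither passed. Ltc4s (ENSMUSG00000020377, chr11:50236461-50238616) had 18.7, 30.9 and 25.1 CPM on ND against 38.1, 48.3 and 35.9 CPM on HFD. Its log2 fold change was 0.71 (SE 0.21, adjusted p = 0.0583 by edgeR), just outside the threshold. It passed under 4 of 11 other settings, with an adjusted p of 0.0307 by DESeq2's Wald test. In the 6 edgeR fits that left out a library it passed in 0, with adjusted p from 0.0592 to 0.153. The antisense transcript Gm26542, with 25 to 42 counts a library, shares 268 bases with the exons of Ltc4s (26.4%), and reads there cannot be told apart. Ltc4s per 1000 CPM of macrophage markers was 8.82, 15.2 and 12.4 CPM on ND against 7.13, 11.6 and 3.98 CPM on HFD, which overlapped.

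Lta4h (ENSMUSG00000015889, chr10:93453411-93484875) had 74.0, 69.1 and 65.0 CPM on ND against 83.7, 96.7 and 88.1 CPM on HFD. Its log2 fold change was 0.37 (SE 0.11, adjusted p = 0.0650 by edgeR), and it passed under none of the 11 other settings or the 6 fits that left out a library.

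Enzymes that share a step or compete for 1 intermediate were also compared within each library, as ratios of FPKM. With 3 libraries against 3, the two-sided exact permutation test used for these 4 pairs cannot go below p = 0.1. The ratio of Hpgds to Ptgds was 1.30, 2.68 and 0.109 on ND against 74.2, 25.4 and 110.3 on HFD, so Hpgds was above Ptgds in 5 of the 6 libraries and below it in the third ND library. The mean log2 ratio rose from -0.47 ± 2.43 to 5.89 ± 1.10 (SD, n = 3), a difference of 6.36 that is at the smallest p the exact test allows (p = 0.1, adjusted over the 4 pairs 0.2). Without the third ND library the difference was 4.99.

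The ratio of Alox5ap to Alox5 was 3.94, 4.40 and 5.55 on ND against 13.7, 13.8 and 28.7 on HFD. The diets did not overlap, and the log2 difference was 1.94 (exact p = 0.1, adjusted 0.2). The ratio of Ltc4s to Lta4h was 1.52, 2.69 and 2.33 on ND against 2.74, 3.01 and 2.45 on HFD, with overlap and a log2 difference of 0.36 (exact p = 0.2, adjusted 0.267). That of Ptgs2 to Ptgs1 differed by -0.74 on the log2 scale (exact p = 0.3, adjusted 0.3), also with overlap. No pair could have passed a threshold of 0.05 in this design.

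**Figure D4:**
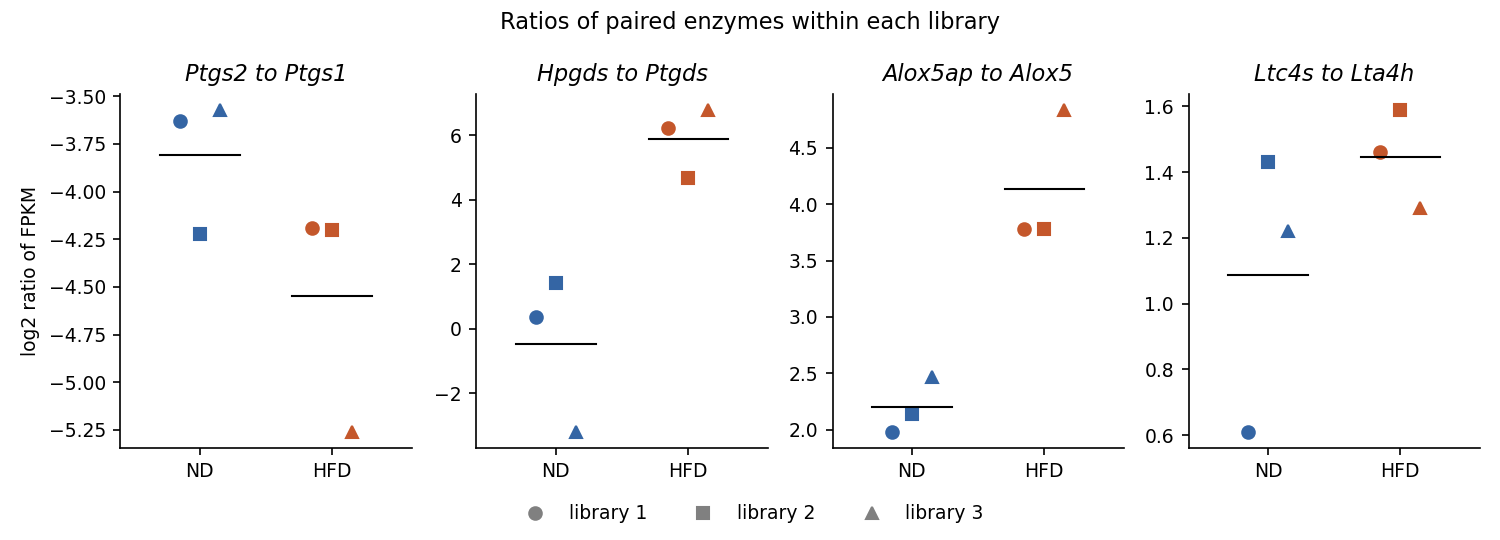
log2 ratio of FPKM for 4 pairs of enzymes in each library, by diet (blue, ND; orange, HFD; circle, square and triangle for libraries 1, 2 and 3), with lines at the means. Hpgds to Ptgds and Alox5ap to Alox5 show no overlap between the diets, with differences of 6.36 and 1.94, and the other 2 pairs overlap.

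Around the 10 enzymes, 7 lists of 50 further genes cover the supply of arachidonic acid, other synthases, receptors, transport and breakdown. Of these 35 were tested, 9 were higher on HFD and 4 lower, with a median log2 fold change of 0.11, beside the 9.85% higher and 6.04% lower of all genes tested. The other 15 did not pass the filter on low counts. Of these Ggt1 had its counts almost wholly in 1 library, and the others had 15 or fewer in any library. Dpep2, among the 9 higher, was near the floor on ND.

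Among 5 other prostanoid synthases, all tested, 2 were higher and Ptges2 (above) was lower, with a median log2 fold change of 0.22. Tbxas1, which makes thromboxane A2 from the same intermediate as the prostaglandin synthases, rose from 299, 242 and 318 counts on ND to 1460, 821 and 2155 on HFD (log2 fold change 2.46, SE 0.32, adjusted p = 0.00752 by edgeR). Akr1b3, an aldose reductase that can also make prostaglandin F2α, had a smaller log2 fold change (0.88, adjusted p = 0.0392). Fam213b, another prostaglandin F synthase, did not pass (-0.51, adjusted p = 0.146).

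The receptors moved in both directions. Of 9 prostanoid receptors 6 were tested, with a median log2 fold change of 0.62. Ptger2, a receptor for prostaglandin E2 that raises cyclic AMP, rose from 57, 80 and 68 counts in the ND libraries to 160, 127 and 199 in the HFD libraries (log2 fold change 1.33, adjusted p = 0.0188 by edgeR). Tbxa2r, the thromboxane receptor, fell from 79, 59 and 91 counts in the ND libraries to 32, 18 and 30 in the HFD libraries (-1.42, adjusted p = 0.0258). Ptger3, the prostaglandin E2 receptor that lowers cyclic AMP, was the most counted of them and did not pass, with 1051, 2966 and 812 counts on ND against 727, 1423 and 628 on HFD (-0.74, adjusted p = 0.410). Ptger4, Ptgir and Ptgfr had log2 fold changes of 0.55, 0.69 and 0.96 and did not pass. The prostaglandin D2 receptors Ptgdr and Ptgdr2 had 3 counts or fewer in every library, which is at the floor, and no difference was detectable at this depth.

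Of 4 leukotriene receptors 3 were tested, with a median log2 fold change of 0.76. Cysltr1, a receptor for the cysteinyl leukotrienes, rose from 170, 136 and 142 counts in the ND libraries to 270, 188 and 260 in the HFD libraries (0.76, adjusted p = 0.0353 by edgeR). Ltb4r1, the main receptor for leukotriene B4, had 94, 72 and 79 counts on ND against 50, 45 and 38 on HFD and did not pass (-0.79, adjusted p = 0.0809).

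Of 6 genes for prostaglandin transport and breakdown all were tested, with a median log2 fold change of -0.34, and 1 was higher. That was Ptgr1, an enzyme in the breakdown of prostaglandins and leukotriene B4. It had 221, 226 and 228 counts on ND against 526, 371 and 1413 on HFD (1.86, adjusted p = 0.0394 by edgeR). Hpgd, which starts the breakdown of prostaglandin E2, had a log2 fold change of -0.68 and did not pass (adjusted p = 0.104).

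Of 5 genes for leukotriene breakdown 4 were tested, with a median log2 fold change of 0.56, and 2 were higher. Dpep2, a dipeptidase that converts leukotriene D4, had 3, 5 and 6 counts on ND against 35, 18 and 50 on HFD (2.93, adjusted p = 0.0137 by edgeR). Its ND counts lie at or near the floor of 3, and it passed the filter on low counts through its HFD libraries. The size of this fold change is therefore uncertain. The symbol Dpep2 names 2 overlapping genes in the annotation, and the values are of the one with the lower identifier. Cyp4f18, which oxidises leukotriene B4, rose from 98, 87 and 114 counts in the ND libraries to 188, 183 and 179 in the HFD libraries (0.98, adjusted p = 0.0133). Dpep1 and Ggt5 had log2 fold changes of 0.13 and 0.11 and did not pass. Ggt1 had 654 counts in the third ND library and 1 or 0 in the others, and was not tested.

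Of 15 phospholipases A2, the family that releases arachidonic acid, 9 were tested, with a median log2 fold change of -0.18. Pla2g7, a secreted enzyme that degrades platelet-activating factor, rose from 313, 271 and 346 counts in the ND libraries to 1096, 815 and 2568 in the HFD libraries (2.36, adjusted p = 0.0139 by edgeR), and the lysosomal Pla2g15 also rose (0.77, adjusted p = 0.0407). Pla2g2d fell from 305, 228 and 346 counts in the ND libraries to 113, 116 and 40 in the HFD libraries (-1.60, adjusted p = 0.0332), and Pla2g2e fell by 1.07 on the log2 scale, just inside the threshold. Pla2g4a, the cytosolic form that is the usual source of arachidonic acid for these enzymes, did not pass (0.70, adjusted p = 0.0530). Pla2g16, the abundant phospholipase of adipocytes, had 19243, 19017 and 18975 counts on ND against 11965, 17998 and 6416 on HFD and did not pass (-0.55, adjusted p = 0.327). Pla2g12a and Pla2g6, both more counted than Pla2g4a, had log2 fold changes of -0.59 and -0.18 and did not pass. Pla2g2f, Pla2g1b and Pla2g10 were at 0 in all libraries.

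Of 6 other lipoxygenases 2 were tested and 0 passed. Alox15 had a log2 fold change of -0.04. Alox12 had 32, 36 and 356 counts on ND against 51, 59 and 23 on HFD, again with the third ND library apart (-1.50, adjusted p = 0.294 by edgeR).

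**Figure D5:**
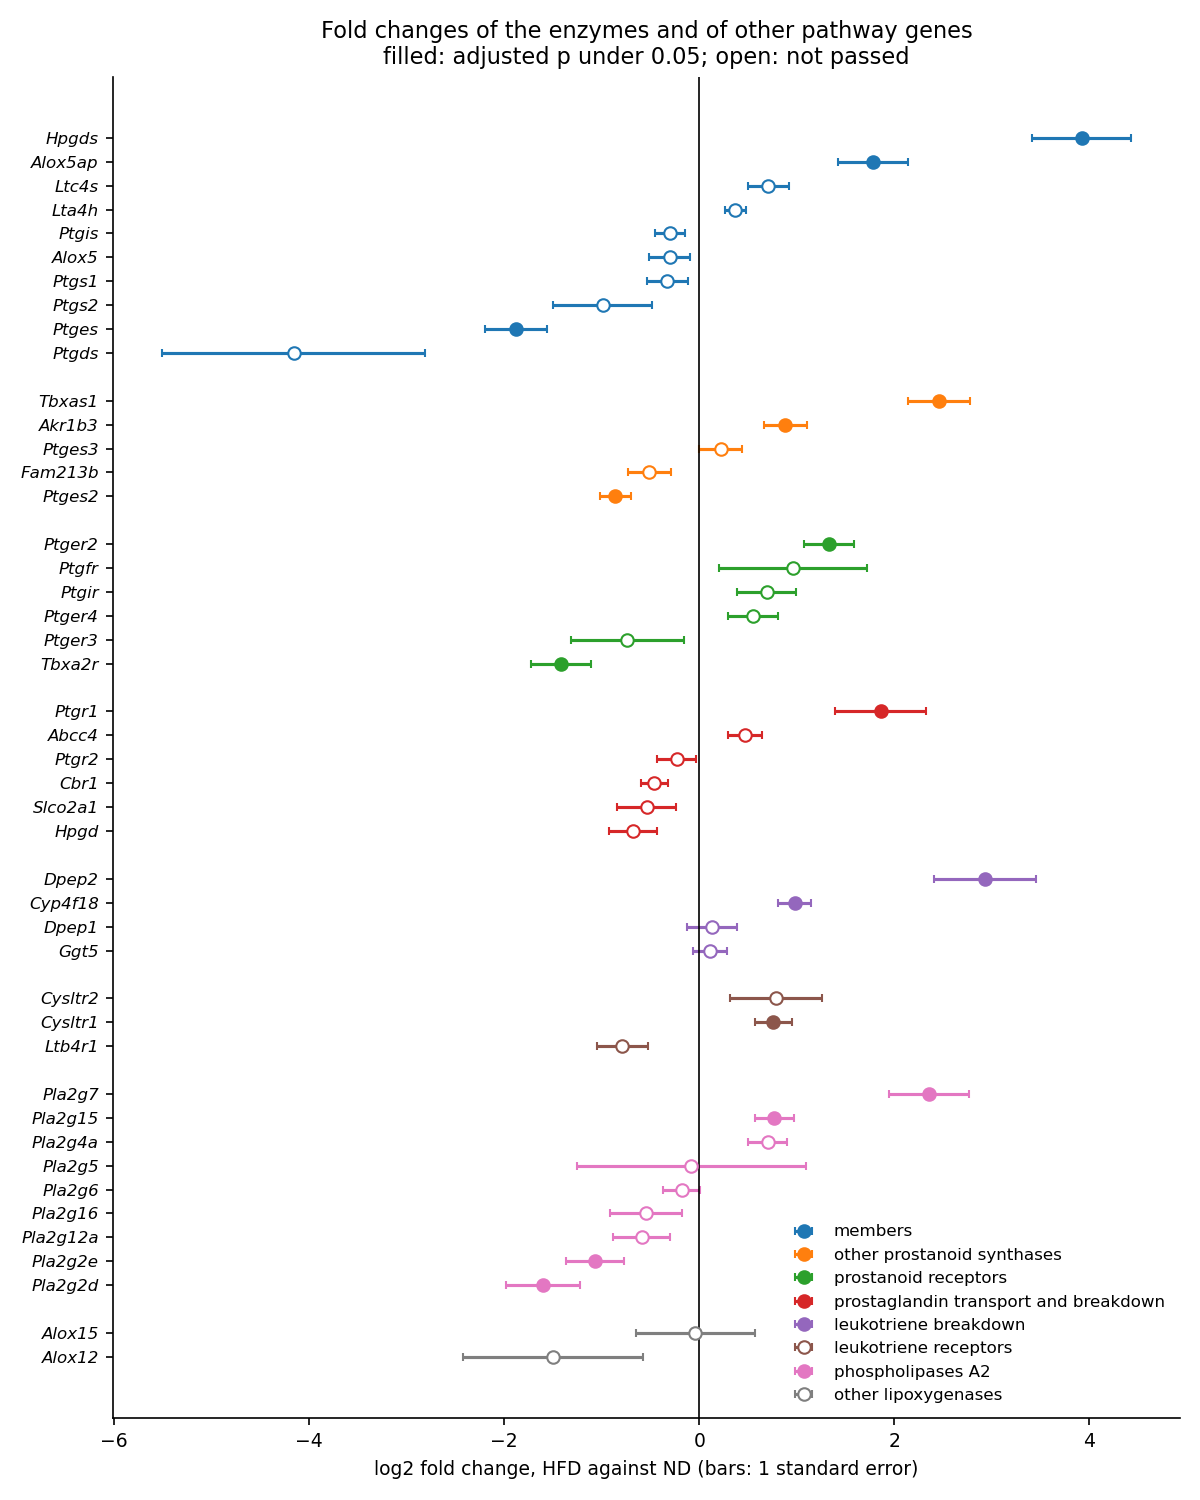
log2 fold change (HFD against ND) of the 10 enzymes and of the 35 tested genes of the other pathway lists, with bars of 1 standard error, grouped and coloured by list; filled points have an adjusted p under 0.05 by edgeR. Hpgds is the highest of all at 3.92, followed by Dpep2 at 2.93 (near the floor on ND) and Tbxas1 at 2.46. Ptgds is the lowest at -4.16 with the widest bar.

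Tbxas1, Dpep2 (from near the floor) and Pla2g7 rose by a log2 fold change above 2. Each had its highest value in the third HFD library, as did Hpgds, Alox5ap and Ptgr1. That library also had the highest summed level of macrophage markers, at 9009 CPM, and the part of these markers in the values of Tbxas1, Dpep2, Pla2g7 and Ptgr1 was not tested.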

How the data were processed

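RNA-Seq of 3 samples of epididymal fat from ND-fed mice and 3 from HFD-fed mice was analysed, with diet and replicate number taken from the sample labels. Per the labels, total RNA was extracted with TRIzol and made into libraries with a NEBNext Ultra kit, which does not mark strand. According to the methods, the authors aligned the paired-end reads with TopHat and Cufflinks to GRCm38. The submitters' processing notes instead list CASAVA 1.8, fastp, HISAT2 2.0.5, featureCounts 1.5.0-p3 and DESeq2 1.20.0 with the human build GRCh38, while the identifiers are those of mouse genes. This difference was not resolved, and which settings were used for counting is not given in the sources used here. The authors deposited raw counts per gene and, for the same genes, FPKM values, each equal within 1.06e-06% to the count over a length and a library factor in 11492 genes with over 50 counts in every library. Of 54532 identifiers 54495 were found in GENCODE M21, which gave names and coordinates.

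HFD was compared with ND by edgeR 4.0.16 (R 4.3.3) with glmQLFit (robust=TRUE) and glmQLFTest, TMM factors, filterByExpr, diet as the only term and Benjamini-Hochberg adjustment over 15751 genes, with a threshold of 0.05. Standard errors came from the F statistic. Enzyme pairs were compared by two-sided exact permutation tests on log2 ratios of FPKM (scipy 1.17.1). As alternatives, DESeq2 1.42.0 and limma-voom (limma 3.58.1) were run, with other scalings and filters (none, or 10 counts or more in 3 or more libraries), no robust fit, a block for the replicate number, limma on log2(FPKM + 1) and log2(FPKM + 0.1) for genes of at least 0.5 FPKM in at least 3 libraries, the former also without that filter, and each library left out. Likeness of profile is the root mean square difference of log2 CPM, centred per gene, over 6 libraries and 12524 protein-coding candidates with an average log2 CPM above 1.

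The text names all 10 enzymes, every pathway gene that passed, up to 4 of the most counted others of each list, and the 3 genes nearest in profile to enzymes described with them. Genes at 0 or high in 1 library, and the receptors of prostaglandin D2, were named after their values were seen. The enzymes, lists and tests were chosen with earlier results of these data known.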

Additional observations from a re-analysis of the deposited data

How the results depend on the processing

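Under 11 other settings and 6 fits that each left out a library, no enzyme changed direction where it was tested. Hpgds passed in all of them. On unfiltered log2(FPKM + 1) with limma, 1 enzyme was higher and 0 lower, and of the other pathway genes 2 were higher and 0 lower, against 9 and 4 by edgeR on counts. There Ptges (adjusted p = 0.0581) and Alox5ap (0.0814) did not pass, and they passed under the other 10 settings. The cause was not tested. Ltc4s passed by DESeq2 (adjusted p = 0.0307), with library size only (0.0458), with no filter (0.0473) and with the replicate block (0.0401). With the replicate block 3 enzymes were higher, and of the other pathway genes 6 were higher and 2 lower, against 9 and 4 with no block. Between same-numbered libraries, deviations from the diet means had correlations of -0.0858, -0.0556 and -0.00532 across genes, so the numbers were not taken to pair the samples.

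Leaving out a library gave 1 to 2 enzymes higher, 0 to 1 lower, and 1 to 11 other pathway genes higher and 0 to 9 lower. Over all genes such fits called between 474 (without the first HFD library) and 3940 (without the second), and DESeq2 called 3666 against 2504. The differences in log2 ratio of the enzyme pairs kept their sign, at 4.99 to 7.30 for Hpgds to Ptgds, 1.58 to 2.12 for Alox5ap to Alox5, 0.12 to 0.53 for Ltc4s to Lta4h and -0.95 to -0.39 for Ptgs2 to Ptgs1 when a library was left out. With 0.1 added to each FPKM value the last was -0.38. Genes at or near 3 counts on both diets, among them the prostaglandin D2 receptors, could not be compared at this depth. Dpep2 was near 3 counts on ND only.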
